A study of Mus musculus with 7 samples.

Results

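In mouse embryonic stem cells (ESCs), 3863 sites were bound by both Zfp281 and Suz12 and had no Zfp281 peak in extraembryonic endoderm stem cells (XENs). They were chosen from the 52266 ESC Zfp281 peaks on chromosomes 1 to 19 and X as those that overlapped an ESC Suz12 peak by at least 1 bp and no XEN Zfp281 peak. The 5 peak lists of the series hold 63934 peaks in all. The membership rule used overlap, and so in part peak width, and everything said below about XEN overlap describes the choice of sites and is no test of it. Binding was mapped by chromatin immunoprecipitation followed by sequencing (ChIP-seq) in feeder-free cells of strain 129S1. ESCs were grown in serum with leukemia inhibitory factor, and XENs in medium conditioned by mouse embryonic fibroblasts. The 3 lists used here came from ESC Zfp281, ESC Suz12 and XEN Zfp281, with 1 library each, and the Zfp281 antibody was the same in both cell types. There was no replicate, so no spread between libraries stands behind any difference, no difference between the cell types was tested, and all intervals cover counting error only. Neighbouring peaks share a region, which these intervals ignore.

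Zfp281 is a zinc finger transcription factor that binds G-rich DNA and belongs to the transcription factor network of pluripotent cells. Suz12 is a core subunit of Polycomb repressive complex 2, which methylates histone H3 at lysine 27 and in ESCs sits mainly at CpG-rich start regions of developmental regulators that are kept silent. XENs are stem cells of the lineage that forms the yolk sac endoderm, and the study asked how Zfp281 holds ESCs back from this fate.

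Library depth was read from the peak statistics, and each kb of genome held 9.98 tags in the ESC Zfp281 library, 13.7 in the ESC Suz12 library and 11.3 in the XEN Zfp281 library. These depths take the narrowest peak of each list as the fragment length. The XEN Zfp281 list held only 3449 peaks, against 52266 in ESCs, so most ESC sites of any kind had no XEN peak, and the absence of a called peak does not show the absence of binding. Behind a member lay a median of 31 tags at the summit (lowest 11, highest 333), against a genome-wide background of 3.01 tags. The genes at these sites and their sequences were not analysed here, because no genome or annotation of build mm9, on which the positions stand, was used.

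The members were stronger and wider Zfp281 sites than most. Their median fold enrichment in the authors' list was 6.71 (quartiles 4.44 and 11.2, lowest 2.11, highest 64.8). The 45737 ESC Zfp281 peaks with neither Suz12 nor XEN Zfp281 had a median of 5.23 (quartiles 4.01 and 7.89). A fold of 10 or more was reached by 1151 members, or 29.8%, against 15.5% of the peaks with neither. The members had a median width of 873 bp (quartiles 555 and 1409 bp), and the peaks with neither had 564 bp. Of the members, 43.3% were wider than 1 kb, against 16.8% of the peaks with neither. Wide peaks meet another list more often, so the width is in part set by the rule. Fold and width went together, with median widths of 456 and 1862 bp in the lowest and highest deciles of members by fold. How far the rule thereby also sets the fold was not tested. By -log10 q-value, 31.2% of the members (29.8 to 32.7%) lay in the top 2 deciles of the ESC Zfp281 list and 8.80% (7.95 to 9.74%) in the lowest decile.

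The 200 Suz12 sites that did have an XEN Zfp281 peak were stronger still. Their median fold was 16.0 (quartiles 10.2 and 22.3) and their median width 1570.5 bp. Of these, 58.0% (51.1 to 64.6%) lay in the top decile by -log10 q-value, against 15.9% (14.8 to 17.1%) of the members. The 2466 peaks with XEN Zfp281 and without Suz12 had a median fold of 13.2 and a median width of 1067 bp. The ranges overlapped widely: the upper quartile of the members, 11.2-fold, lay above the lower quartile of the sites with an XEN peak.

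**Figure D1:**
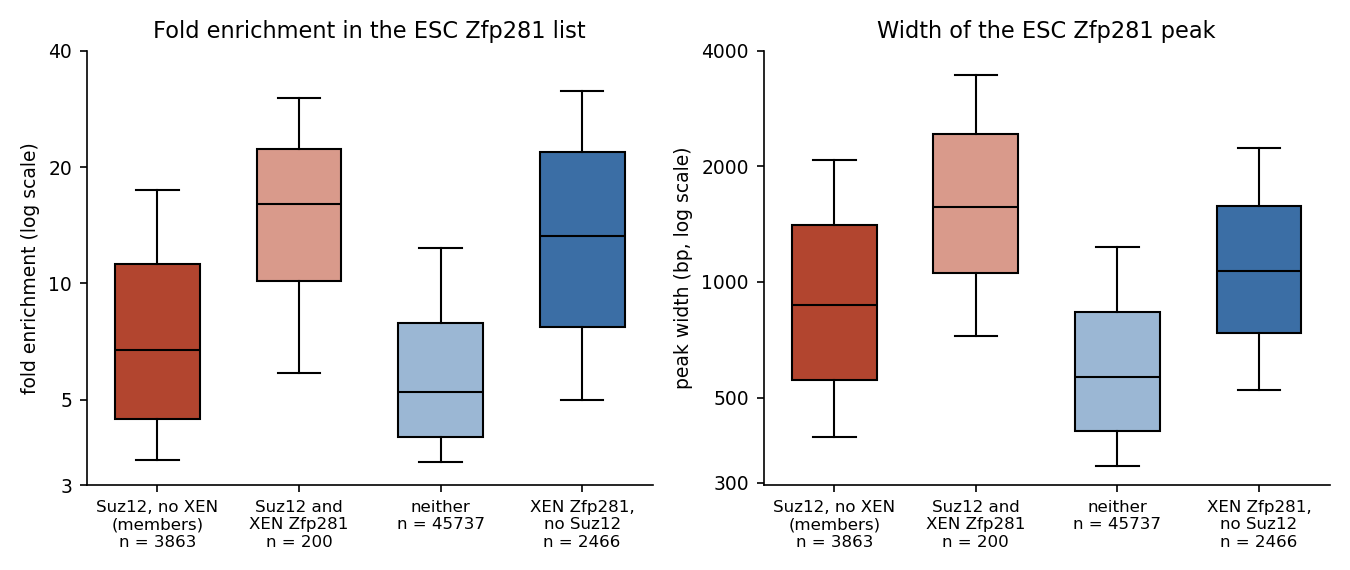
Fold enrichment (left, log axis) and width in bp (right, log axis) of the ESC Zfp281 peaks in 4 classes by overlap with ESC Suz12 and XEN Zfp281. Boxes span the quartiles with a line at the median, and whiskers run from the 10th to the 90th percentile. The members lie above the peaks with neither and below both classes that have an XEN peak.

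As a whole, Suz12 sites had no XEN Zfp281 peak about as often as other ESC Zfp281 sites. Of the 4063 ESC Zfp281 peaks with Suz12, which are 7.77% of the list, 95.1% had no XEN peak and so are the members, which make up 7.39% of the list. Of all ESC Zfp281 peaks 94.9% had none, and of those without Suz12 94.9%. The share is at the background and says nothing particular of Suz12 sites.

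The shares were also set out for sites of equal strength in ESCs. This division was made after the data were examined, and both overlaps belong to the membership rule, so the values are a description of 1 library per group and no test. In the top decile of ESC Zfp281 peaks by -log10 q-value, 116 of 731 peaks with Suz12 had an XEN peak, or 15.9% (95% Wilson interval 13.4 to 18.7%). In the same decile 1188 of 4496 peaks without Suz12 had one, or 26.4% (25.2 to 27.7%). The median folds of the 2 sets in this decile were alike, 19.3 and 19.2. In the ninth decile the shares were 6.20% (4.57 to 8.36%) and 10.1% (9.26 to 10.998%). The order was the other way in the third decile, 1.49% with Suz12 and 1.11% without, and in the fourth, 1.45 and 1.41%. The share with Suz12 was the lower one in all other deciles. Below the ninth decile the intervals with and without Suz12 overlapped in each decile. In the lowest decile the shares were 0.585% (0.161 to 2.11%) and 0.819% (0.602 to 1.11%), a level at which these numbers of peaks cannot show a difference. Among the 1001 peaks at ranks 1 to 1000, ties included, 29 of 121 with Suz12 had an XEN peak, or 24.0% (17.2 to 32.3%), against 418 of 880 without, or 47.5% (44.2 to 50.8%).

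If the Suz12 sites had carried an XEN peak at the rate of the other peaks of the same decile, 7.89% of them would have had one. The observed share was 4.92% (4.30 to 5.63%), which is 0.624 times that rate. This ratio describes how the rule divided the sites, and its interval (0.545 to 0.714) covers the counting error of the observed share alone. The ratio was below 1 on 17 of the 20 chromosomes, but few sites on each had an XEN peak, from 5 on chromosomes 18, 19 and X to 19 on chromosome 2. Of these 17, the interval included 1 on chromosomes 6, 8, 10, 11, 12, 14, 17, 18 and 19. It was 1.09 on chromosome 3 (0.668 to 1.73), 1.57 on chromosome 16 (0.891 to 2.67) and 1.13 on the X chromosome (0.487 to 2.51). The lowest ratio was that of chromosome 4, where 6 of 252 Suz12 sites had an XEN peak (0.268, 0.123 to 0.574). Within a decile the peaks with Suz12 were wider, with medians of 1778 and 1321 bp in the top decile. With deciles of width in place of -log10 q-value the ratio was 0.529 (0.462 to 0.606), and with quintiles of both together 0.584 (0.510 to 0.668). The control level behind the ESC Zfp281 list was raised over its background at 62.2% of the members (60.6 to 63.7%) and at 54.6% of the peaks with neither (54.1 to 55.0%). With the deciles divided by whether this level was raised, the ratio was 0.628 (0.548 to 0.718). These divisions describe the same choice of sites, and what part width or the control level has in the ratio was not tested.

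The same ratio was described by the strength of the Suz12 peak, and its differences between quartiles were not tested. In the lowest quartile of sites by Suz12 -log10 q-value, with a median Suz12 fold of 4.07 and a median Suz12 width of 624 bp, 6.50% (5.14 to 8.18%) had an XEN Zfp281 peak. This was 0.741 times the rate of other peaks of the same Zfp281 deciles (0.586 to 0.934). In the highest quartile, with a median Suz12 fold of 23.3 and a median width of 8322 bp, 3.44% (2.49 to 4.75%) had one, or 0.461 times that rate (0.333 to 0.636). The 2 quartiles between them had ratios of 0.632 and 0.641. The intervals of the ratio in the lowest and the highest quartile overlapped, which by itself does not decide whether the ratios differ. By Suz12 width the ratio was 0.657, 0.679 and 0.717 in the 3 narrower quartiles and 0.435 (0.311 to 0.607) in the widest. The median Zfp281 fold was 7.69 in the lowest and 6.56 in the highest quartile of Suz12 strength.

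**Figure D2:**
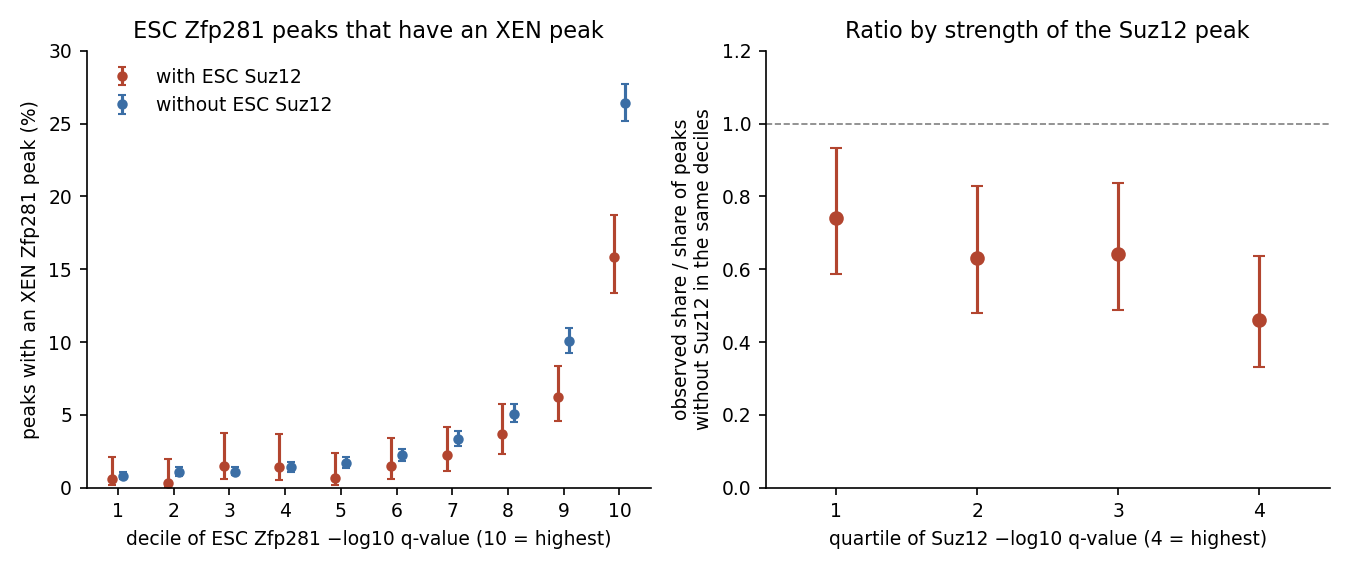
Left, percentage of ESC Zfp281 peaks with an XEN Zfp281 peak in each decile of the ESC -log10 q-value, for peaks with Suz12 (red) and without (blue). Right, ratio of the observed percentage to that of peaks without Suz12 in the same deciles, by quartile of Suz12 strength, with a dashed line at 1. Bars are 95% Wilson intervals, on the right divided by the rate of the other peaks. In the top 2 deciles the percentages with and without Suz12 are 15.9 against 26.4% and 6.20 against 10.1%. In each of the lower deciles the intervals overlap.

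Over all members, the strength of Zfp281 was only loosely related to that of Suz12. Over the 3863 members, Spearman's rho between the Zfp281 fold and the fold of the strongest Suz12 peak overlapped was -0.051, and Pearson's r on the log2 scale was -0.042. Several members can share 1 Suz12 peak, so these points are not independent. The widths of the 2 peaks were as loosely related, with a rho of 0.032. Within each quartile of members by Zfp281 width, the stronger Zfp281 sites had lower median Suz12 folds. The stronger sites were also the wider ones by median in each quartile, and the part of width in this was not tested. The median Suz12 folds of the weaker and the stronger members were 9.07 and 7.98 in the narrowest width quartile, 9.53 and 6.66 in the next, 9.68 and 7.28 in the next and 10.8 and 9.40 in the widest. A Zfp281 fold of 20 or more was seen at 254 members, and at 53 of these the Suz12 fold reached 20 as well. The share of all members with a Suz12 fold of 20 or more was not counted, so the 53 say nothing particular of strong Zfp281 sites. The Suz12 peaks at members had a median fold of 8.59 (95% interval of the median 8.29 to 8.91, quartiles 5.15 and 17.1) and a median width of 1777 bp (1681 to 1863 bp, quartiles 919 and 4463 bp). At the 200 Suz12 sites with an XEN peak the median Suz12 fold was 6.80 (5.96 to 8.37, quartiles 4.59 and 13.4) and the median Suz12 width 1478 bp (1268 to 1767 bp). The intervals overlapped for both fold and width.

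**Figure D3:**
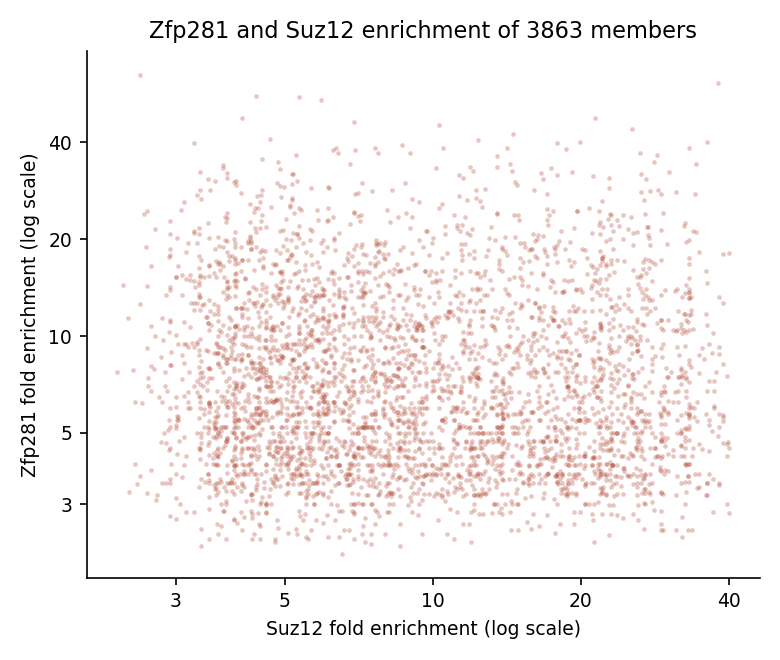
Zfp281 fold enrichment (vertical, log axis) against the fold enrichment of the strongest overlapped Suz12 peak (horizontal, log axis), 1 point for each of the 3863 members. The points spread over the whole plane.

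The 10 members with the highest Zfp281 score met Suz12 peaks of widely differing strength, and in 9 of them the Zfp281 summit lay outside the Suz12 peak. The first, at chr1:157587636-157590739, ranked 8 in the whole ESC Zfp281 list with a fold of 61.2 and 333 tags at its summit over a control level of 4.45. It overlapped the ESC Suz12 peak of rank 1 (38.1-fold, 11137 bp wide) and a further Suz12 peak, and its summit lay 44 bp outside the nearer edge. The nearest XEN Zfp281 peak was 68.6 kb away. This was the sole member of the 10 at a Suz12 peak of more than 30-fold.

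The next members by score lay mostly beside weak Suz12 peaks. The second, at chr3:80839755-80841736, had the highest fold of all members, 64.8, and overlapped its Suz12 peak (2.54-fold, rank 7943) by only 23 bp. The next 2, at chr4:154331417-154333726 (55.5-fold) and chr7:150621921-150625486 (55.3-fold), met Suz12 peaks of 4.37-fold and 5.36-fold. The fifth, at chr2:109512879-109515562 (47.6-fold), was the one member of the 10 that lay wholly inside its Suz12 peak, which was 4871 bp wide with a fold of 21.4, and its summit lay 1470 bp from the edge. The nearest XEN Zfp281 peak was 242 kb away.

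The other 5 had Zfp281 folds from 24.2 to 54.1. They lay at chr4:151368509-151371398, chr7:56136273-56137602, chr17:25569307-25571876, chr8:124858302-124861539 and chr4:131393823-131395091, beside Suz12 peaks of 4.33-fold, 5.93-fold, 10.3-fold, 4.67-fold and 14.6-fold. The first of these had the lowest fold of the 10 and the highest control level, 12.0 tags, against 3.01 to 4.51 tags at the other 9. Its 313 tags were the second most of the 10.

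The 5 members at the strongest Suz12 peaks lay at the Suz12 peaks of rank 1 and 2. Besides the first above, they had Zfp281 folds from 2.82 to 18.1. The highest of these lay above the 90th percentile of the members, 17.4. The same rank 1 Suz12 peak held a second member, at chr1:157582674-157585181, with a fold of 4.89 and 38 tags, 4894 bp from the nearest Suz12 edge. The Suz12 peak of rank 2, at chr3:128914450-128930909 (40.1-fold, 16460 bp wide), held 3 members. They lay at chr3:128916785-128919054 (18.1-fold), chr3:128926976-128927626 (4.49-fold) and chr3:128920380-128920919 (2.82-fold), with summits 3888, 3852 and 6144 bp from its edges. The nearest XEN Zfp281 peaks lay 1125, 3194 and 2561 bp from them, and this Suz12 peak met an XEN Zfp281 peak itself.

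Such mixed Suz12 peaks were rare. Of the 3548 Suz12 peaks that held a member, 35 also met an XEN Zfp281 peak, and these held 77 members with a median Zfp281 fold of 5.18. The 3548 are 43.4% of the 8184 ESC Suz12 peaks. They had a median fold of 6.76 and a median width of 1277 bp. The 4437 Suz12 peaks without any Zfp281 peak had 4.82-fold and 786 bp, so the members lay at the stronger and wider Suz12 peaks. Their overlap with Zfp281 is itself more likely for wide peaks.

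A single member was the rule, and many members only in wide Suz12 peaks. One member was found in 2927 of the 3548 Suz12 peaks, or 82.5%, with a median Suz12 width of 1102 bp. Another 445 held 2 members (2872 bp), 101 held 3 (7348 bp), 40 held 4 (10610.5 bp) and 35 held 5 or more (16575 bp). Per kb of Suz12 peak, the median number of members was 0.907 in those with 1 and 0.358 in those with 5 or more. Narrow Suz12 peaks enter here only if they held a member, which raises their density. The 621 Suz12 peaks with 2 or more members held 1544 of the members, or 39.97%. The median fold of the members was 7.42 in Suz12 peaks with 1 member and 5.73 in those with 5 or more. Members of 1 Suz12 peak could differ widely: the highest fold was at least 2 times the lowest in 314 of the 621, or 50.6%, and the largest ratio was 16.7.

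The Suz12 peaks with the most members were singled out after their values were seen. The widest Suz12 peak of the list, 85.8 kb at chr11:96133144-96218983, held 21 members with folds from 3.51 to 38.3 (median 8.17) and no XEN Zfp281 peak. The next, 72.3 kb at chr15:102778814-102851089, held 17 members with folds from 2.81 to 23.8, and 1 further Zfp281 peak that had an XEN peak. The next, 30.3 kb at chr6:52154092-52184381, held 10 members with folds from 2.51 to 21.4 and no XEN Zfp281 peak. Each of these Suz12 peaks thus held both weak and strong Zfp281 sites.

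**Figure D4:**
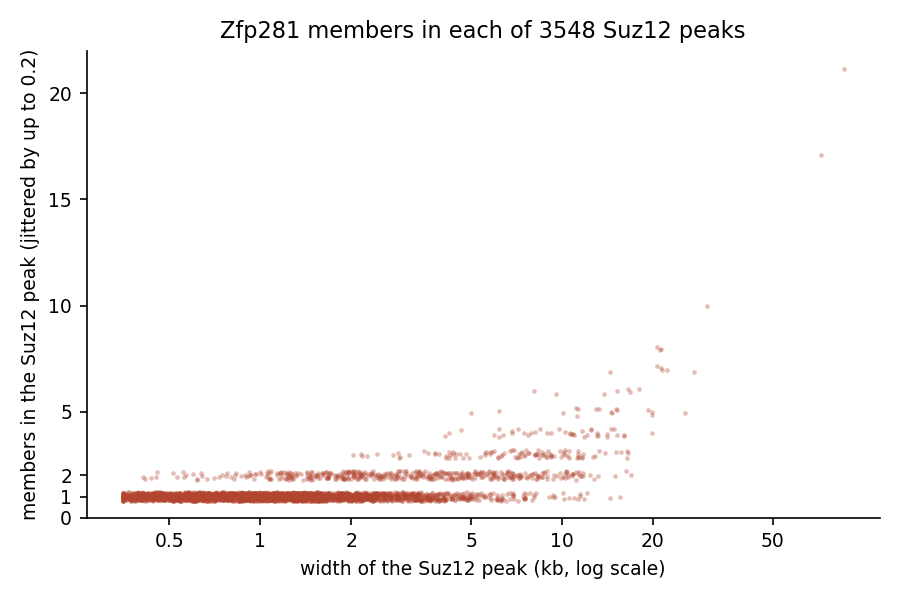
Number of members (vertical, spread by up to 0.2 so that points can be told apart) against the width of the Suz12 peak in kb (horizontal, log axis), 1 point for each of the 3548 Suz12 peaks with a member. Single members span all widths up to more than 10 kb, and the 3 richest Suz12 peaks, with 21, 17 and 10 members, are the widest.

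Within or beside the Suz12 peak, Zfp281 took no fixed place. The Zfp281 summit lay inside an overlapped Suz12 peak at 2545 members, or 65.9% (64.4 to 67.4%), with a median of 560 bp to the nearest edge (quartiles 205 and 1658 bp). At the other 1318 members it lay outside, with a median of 172 bp from the edge (quartiles 86 and 337.75 bp). The whole Zfp281 peak lay inside 1 Suz12 peak at 1492 members (38.6%), and a whole Suz12 peak lay inside the Zfp281 peak at 338 (8.75%). At 624 members (16.2%) the Zfp281 peak bridged 2 or more Suz12 peaks. The Zfp281 and Suz12 summits were a median of 690 bp apart, and 6.50% of them (5.76 to 7.32%) came within 100 bp of each other. In Suz12 peaks of 5 kb or more, 14.1% of the summits inside (11.8 to 16.6%) lay in the outer 10% at either end, below the 20% that an even spread gives, while in those under 2 kb 22.5% did (19.9 to 25.2%).

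Strong members more often had their summit outside. In the lowest decile of members by fold (median 3.15), 78.0% of the summits (73.6 to 81.9%) lay inside a Suz12 peak, and in the highest decile (median 21.9) 48.8% did (43.9 to 53.8%). Median widths in these deciles were 456 and 1862 bp, and a wide Zfp281 peak can reach a Suz12 peak from farther away. Divided by width first, the stronger members had fewer summits inside in each width quartile. Width was not made equal by this, because the stronger members were also the wider ones in each quartile. Their median widths were 447.5 against 387.5 bp, 729 against 685 bp, 1156.5 against 1075 bp and 2080 against 1762 bp. The shares in the weaker and stronger members were 80.1 and 73.2% in the narrowest quartile, where the intervals overlapped (76.3 to 83.4% and 69.0 to 77.0%). They were 73.1 and 62.9% in the second quartile, 64.2 and 51.9% in the third and 65.4 and 55.9% in the widest, where the intervals were apart. The stronger members also met narrower Suz12 peaks in each width quartile, with medians of 1684.5 against 1920.5 bp, 1377 against 2068 bp, 1376 against 1962 bp and 1817 against 2170 bp. The parts of Zfp281 width and of Suz12 width in the difference were not tested. At the 200 Suz12 sites with an XEN peak, 52.0% of the summits (45.1 to 58.8%) lay inside.

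The same edges were examined without the overlap rule, over all 49600 ESC Zfp281 peaks that had no XEN peak. Peaks under 10-fold had 171 summits per Mb (158 to 184, exact Poisson interval) in the first 250 bp outside a Suz12 edge and 136 (125 to 148) in the first 250 bp inside. Farther inside, their density was 126 per Mb at 250 to 500 bp and 183 (162 to 206) at 2 to 5 kb. Peaks of 10-fold or more had 70.2 per Mb (62.1 to 79.2) in the first 250 bp outside, 53.4 (46.5 to 61.1) just inside, 39.0 (31.7 to 47.4) at 250 to 500 bp inside and 68.4 (55.8 to 83.0) at 2 to 5 kb inside. From 1 to 2 kb outside the densities were 46.9 and 12.1 per Mb, and over the whole span of the chromosomes 16.1 and 3.21 per Mb. In both classes of strength the density was higher in the first 250 bp outside than in the first 250 bp inside. It rose again farther inside and at 2 to 5 kb was about that just outside. At 5 to 10 kb inside it was 210 per Mb (168 to 260) for peaks under 10-fold and 54.4 (34.1 to 82.3) for those of 10-fold or more. The deepest positions exist only in wide Suz12 peaks.

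**Figure D5:**
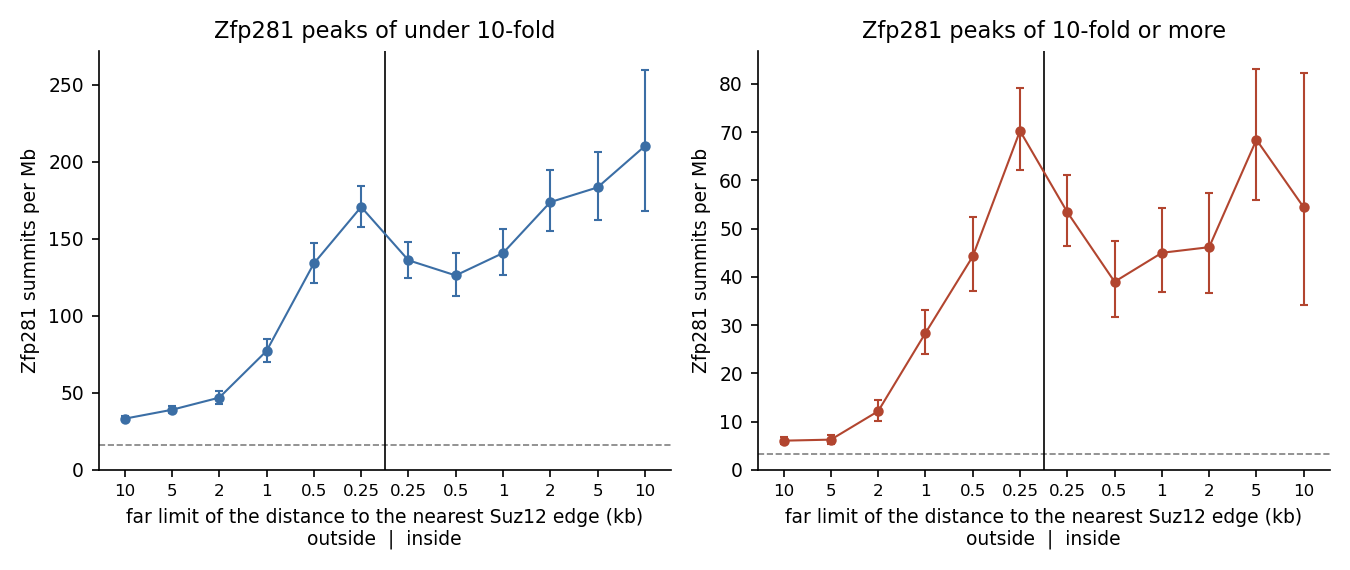
Zfp281 summits per Mb (vertical) by distance to the nearest edge of an ESC Suz12 peak, for ESC Zfp281 peaks without an XEN peak of under 10-fold (left) and of 10-fold or more (right). Ticks give the far limit of each distance class in kb, outside to the left and inside to the right of the vertical line at the edge; bars are 95% exact Poisson intervals and the dashed line is the density over all chromosomes. The first 250 bp outside hold 171 and 70.2 summits per Mb.

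Most members had other Zfp281 peaks close by. At least 1 other ESC Zfp281 peak had its summit within 10 kb of 76.7% of the members (75.3 to 78.0%), against 62.4% (61.9 to 62.8%) of the peaks with neither Suz12 nor XEN Zfp281. The share was 78.0% (71.8 to 83.2%) at the Suz12 sites with an XEN peak and 68.8% (67.0 to 70.6%) at the peaks with XEN Zfp281 and without Suz12, so it is not particular to the members. The mean number of such neighbours was 2.02 for members and 1.28 for peaks with neither. Of the 3843 gaps between neighbouring members on a chromosome, 682 were under 1 kb and 1409, or 36.7%, under 10 kb, while the median gap was 117 kb. The members covered 4.25 Mb of the 39.8 Mb under ESC Zfp281 peaks.

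XEN Zfp281 peaks were mostly far from the members. The median gap to the nearest one was 205 kb (quartiles 66.5 and 606 kb), against 159 kb for the peaks with neither. An XEN peak lay within 10 kb of 261 members and within 1 kb of 24. The same counts were not made for the peaks with neither. The rule leaves out sites that overlap an XEN peak, and the XEN list held only 3449 peaks, so wide gaps are not particular to the members. The 3 members with the closest XEN peak lay at chr16:78238608-78238994, chr19:37248204-37249370 and chr10:128082023-128082766, with gaps of 98, 216 and 261 bp and Zfp281 folds of 5.62, 5.62 and 6.19. The 200 Suz12 sites with an XEN peak included 0 with an overlap of under 50 bp. On the Suz12 side, 130 members overlapped Suz12 by under 50 bp (median Zfp281 fold 5.59), and 109 peaks without an XEN peak came within 50 bp of a Suz12 peak without an overlap (5.48-fold). No member overlapped any of the 4 XEN Suz12 peaks or the XEN H3K27me3 peak.

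The widest member, at chr8:73009698-73020084, spanned 10387 bp with a 30.7-fold enrichment and met 4 Suz12 peaks, with 8775 bp of overlap. The narrowest width, 302 bp, was shared by 66 members. The one with the highest score among these, at chr11:69616309-69616610, had a fold of 4.73 and 18 tags and met its Suz12 peak by 6 bp.

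Members were spread over every chromosome. Their share of the ESC Zfp281 peaks ran from 5.52% on chromosome 17 (4.67 to 6.51%) to 10.1% on chromosome 2 (9.17 to 11.05%) and 11.2% on the X chromosome (9.12 to 13.7%). Chromosome 2 had the most members, 398, and the X chromosome the fewest, 82. The share of Suz12 peaks with a member ran from 36.8% on chromosome 3 (32.3 to 41.5%) to 50.5% on chromosome 8 (45.7 to 55.2%). Median folds of the members differed little between chromosomes, from 5.98 on chromosomes 15 and 16 to 7.60 on chromosome 17.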

How the data were processed

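Zfp281 and Suz12 were mapped by ChIP-seq in ESCs and XENs, with paired-end reads per the labels' protocols. The 7 samples make 7 groups of 1 library, grouped by title. Bowtie2 2.3.4, SAMtools 0.1.19, FastQC 0.10.1 and build mm9 are named in the submitters' processing notes. The peak caller is not given in the sources used here. Each deposited list gives, per peak, the authors' fold enrichment (a ratio), score, -log10 p-value, -log10 q-value and summit. The deposited score is the -log10 q-value multiplied by 10 and cut to a whole number. These values were used within a list.

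Peaks that shared 1 bp or more were taken as overlapping. Only chromosomes 1 to 19 and X were used, so 30 peaks of the ESC Zfp281 list were dropped. Where a peak met several Suz12 peaks, the one with the highest score was used. Shares have 95% Wilson intervals. The rate of peaks without Suz12 was taken per decile of the ESC -log10 q-value and averaged over the Suz12 sites. Tags at a summit were recovered as the whole number that gives both the deposited fold, with 1 tag added to the ChIP and to the control, and the deposited p-value, as a Poisson upper tail. Every ESC Zfp281 peak matched within 0.00024 in -log10 p. Pileups were scaled by 0.590 for ESC Suz12 and 0.815 for XEN Zfp281, and the narrowest peak (302, 350 and 257 bp) was taken as the fragment length. The recovery was less exact in the scaled lists, with median mismatches of 0.00144 for ESC Suz12 and 0.000971 for XEN Zfp281. For ESC Zfp281 the median mismatch was 3.9e-06. A control level over 1.01 times the background was called raised.

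The members and lists were chosen with earlier results of these data known. By rule, the text names the 10 members with the highest Zfp281 score, the 5 at the highest Suz12 score, the widest, the narrowest and the 3 closest to an XEN peak. Positions count from 1. The code (Python 3.11.15, NumPy 2.4.6, pandas 2.3.3, SciPy 1.17.1) was tested on simulated data. The shares near start sites, with a G-rich motif and of fixed gene lists, and the GC content, were not run, because the gene and promoter tables used here are of GRCm38.p6 and positions were not converted. Alternatives are in the closing section.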

Additional observations from a re-analysis of the deposited data

How the results depend on the processing

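No paired analysis was possible because there is 1 library per group. Of 42 alternative values, 30 stayed within the interval of the reported value, or for the number of members within 1.5 times, 12 moved and 0 reversed. A number, median or share has no direction of its own to reverse, and every alternative reuses the same libraries. With the Zfp281 summit required inside a Suz12 peak there were 2545 members, with a median fold of 5.98 and width of 805 bp, and 3.93% of the Suz12 sites had an XEN peak. With the higher-scoring 50% of the ESC Zfp281 list these values were 2417, 9.72, 1212 bp and 7.18%, since the weaker peaks are left out. A score of at least 50 in all 3 lists gave a median fold of 7.65 and width of 1023.5 bp. With the XEN summit within 250 bp of the ESC summit, an alternative chosen after seeing the data, 4.09% had an XEN peak. The ratio to the rate of peaks without Suz12, added after seeing the data with all its settings, was 0.529 with deciles of width and ran from 0.529 to 0.666 over its 12 other settings, including 0.619 without chromosomes 1 and 8. The results near start sites, on the G-rich motif, GC content and gene lists were not run, with all their alternatives. With 200 Suz12 sites that had an XEN peak, differences among subsets of them are resolved only roughly.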

Other observations

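The control level behind the ESC Zfp281 peaks was raised over its background at 475 of the 478 members on chromosomes 1 and 8, or 99.4% (98.2 to 99.8%), and at 56.9% of the members on the other chromosomes (55.3 to 58.6%). For the peaks with neither Suz12 nor XEN Zfp281 the shares were 93.1% (92.5 to 93.7%) and 47.9% (47.4 to 48.4%). On the other chromosomes they were 62.3% (54.9 to 69.1%) at the Suz12 sites with an XEN peak and 65.3% (63.2 to 67.3%) at the peaks with XEN Zfp281 and without Suz12, so a raised level was not particular to the members.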
